A study of Homo sapiens with 15 samples.

Results

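The genes described here are 40 genes of the endoplasmic reticulum (ER), the compartment in which secreted and membrane proteins are made and folded. They were chosen by gene symbol as ER chaperones and genes of the unfolded protein response (UPR), out of 17138 genes listed in the tables of 2 human cell lines, and all 40 were found in both tables. MRC5 is a lung fibroblast line, H196 a non-neuroendocrine (non-NE) small cell lung cancer (SCLC) line and H69 a neuroendocrine (NE) SCLC line that served as a partner and was not sequenced. The mRNA of MRC5 was sequenced after 7 days of mono-culture (MRC5_Mo), of co-culture with H69 (MRC5_CoH69) and of co-culture with H196 (MRC5_CoH196), and that of H196 after mono-culture (H196_Mo) and after co-culture with MRC5 (H196_Co), with 3 libraries in each of the 5 groups. The partner cells sat on a transwell insert with 0.4-µm pores, so that medium but not cells could pass, and the sequenced cells grew in the well beneath. The labels name no drug and no added gene in any group, and the SCLC lines and MRC5 were kept in different media. The sources speak of parallel replicates and do not say that these were separate cultures, so p-values measure the spread between these libraries, which may be technical.

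Proteins enter the ER through the SEC61 channel and are bound by HSPA5 (BiP), an HSP70 chaperone that works with DNAJ partners and with HYOU1, which reloads it with ATP. Sugar-carrying proteins are held by the lectin chaperones CALR and CANX, disulfide bonds are made by the protein disulfide isomerases with the oxidases ERO1A and ERO1B, and proteins that fail to fold are passed back to the cytosol by ER-associated degradation (ERAD). When unfolded proteins build up, the sensors ATF6, ERN1 (IRE1) and EIF2AK3 (PERK) start the UPR, in which ATF6 and XBP1 raise chaperone and ERAD genes while PERK slows translation and raises ATF4 and DDIT3 (CHOP). Fibroblasts secrete large amounts of collagen and are known for a well developed ER.

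ATF6 and XBP1 act on short promoter elements, and the matches to these elements in the members are shown here. They do not divide the members into those that the response drives and others. Of the 40 genes, 36 had a RefSeq promoter on GRCh38.p14, here the 250 bases before and 50 after the transcription start, and SEC24D, PDIA3, DERL1 and DERL3 had none in that table. The ER stress element (ERSE, CCAAT and CCACG 9 bases apart, on either strand) was found in 7 of the 36 promoters, or 19.44%, against 0.0806% of all 27305 promoters. ERSE-II (ATTGG and CCACG 1 base apart) was found in 3 members, or 8.33%, against 0.0549%. The UPR element TGACGTGG was found in DNAJC10 and HYOU1, or 5.56%, against 0.795%, and in HYOU1 it overlapped an ERSE-II. The core ACGTG, which is also part of hypoxia response elements and of the UPR element, was found in 15 members, or 41.67%, against 21.6%. In the stretches that follow, written 5′ to 3′ on the strand of the gene, capitals mark the whole match from the CCAAT or ATTGG part to the CCACG part, or their reverse complements. HSPA5 (chr9:125241377-125241423, minus strand), XBP1 (chr22:28800589-28800635, minus), CANX (chr5:179698764-179698810, plus), CALR (chr19:12938370-12938416, plus), CRELD2 (chr22:49918540-49918586, plus), ERO1B (chr1:236282169-236282208, minus) and HSP90B1 (chr12:103930202-103930248 and chr12:103930307-103930353, plus) held an ERSE. HYOU1 (chr11:119057366-119057404 and chr11:119057260-119057298, minus), SDF2L1 (chr22:21642100-21642138, plus) and HERPUD1 (chr16:56932011-56932049, plus) held an ERSE-II.
HSPA5: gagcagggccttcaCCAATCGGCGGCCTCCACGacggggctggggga
XBP1: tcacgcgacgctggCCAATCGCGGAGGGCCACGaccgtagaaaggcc
CANX: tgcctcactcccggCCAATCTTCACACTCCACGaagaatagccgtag
CALR: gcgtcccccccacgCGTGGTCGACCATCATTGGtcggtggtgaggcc
CRELD2: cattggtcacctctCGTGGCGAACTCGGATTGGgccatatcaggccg
ERO1B: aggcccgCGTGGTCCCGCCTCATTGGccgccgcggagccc
HSP90B1, upstream match: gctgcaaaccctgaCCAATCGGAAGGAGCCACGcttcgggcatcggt
HSP90B1, downstream match: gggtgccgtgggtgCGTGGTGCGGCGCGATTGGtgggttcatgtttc
HYOU1, upstream match: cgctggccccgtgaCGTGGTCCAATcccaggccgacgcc
HYOU1, downstream match: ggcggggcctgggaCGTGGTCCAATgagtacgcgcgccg
SDF2L1: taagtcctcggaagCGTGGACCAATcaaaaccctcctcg
HERPUD1: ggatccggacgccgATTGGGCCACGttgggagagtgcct

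A match is a description of these letters and not of binding. ERO1A, the member that moved most, held none of the first 3 motifs in its window and 1 ACGTG core, shown in capitals as its reverse complement in the 250 bases before its start (chr14:52695559-52695808, minus strand). The study's coordinates extend ERO1A to 52695750, inside this stretch. They begin HSP90B1 at 103930107, so that both of its printed matches lie within the gene by those coordinates. Starts at these places would give other windows, which were not searched.
ERO1A: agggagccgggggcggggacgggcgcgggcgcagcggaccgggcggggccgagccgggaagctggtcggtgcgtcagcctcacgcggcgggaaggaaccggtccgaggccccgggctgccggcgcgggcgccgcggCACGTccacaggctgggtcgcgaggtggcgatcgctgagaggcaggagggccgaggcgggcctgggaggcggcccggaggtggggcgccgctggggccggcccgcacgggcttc

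Library totals ranged from 16073597 to 19170560 expected counts. Levels are given as CPM, the count of a gene relative to its library's scaled total, and for counting error alone the limit that a count of 0 allows (3 counts) was 0.156 to 0.187 CPM. Of 10 fibroblast markers, 9 were listed in both tables, and all 9 were above 1 FPKM (fragments scaled to transcript length and library total) in each MRC5 group and under that in H196. Their summed FPKM was 5022 to 5624 in MRC5_Mo, 5814 to 5999 in MRC5_CoH69 and 2435 to 2588 in MRC5_CoH196, but the list did not move as one. The highest FPKM in MRC5_Mo and MRC5_CoH196 were 2735 and 810 for COL1A1, 2100 and 1229 for COL1A2 and 283 and 57.2 for COL3A1. They were 222 and 203 for DCN, 45.1 and 26.6 for POSTN and 34.4 and 34.3 for FAP. PDGFRB had 63.3 and 87.4, PDGFRA 46.8 and 50.8 and LUM 94.7 and 101. All 7 markers of non-NE SCLC were above 1 FPKM in every group, with sums of 4613 to 4886 in MRC5_Mo, 4164 to 4323 in MRC5_CoH69 and 6050 to 6362 in MRC5_CoH196, and of 6 epithelial markers 2 to 4 were. The part of these shifts in the results on ER genes was not tested. The fibroblast markers thus set MRC5 apart from H196, while the NE and non-NE lists did not sort the lines by their labels. H196, labelled non-NE by the study, held 5 of 7 NE markers above 1 FPKM, with UCHL1 at up to 614 in H196_Mo, but CHGA and NEUROD1 reached at most 0.35 FPKM in it. In MRC5, 2 of these 7 were above 1 FPKM, with a sum of 553 to 569.5 in MRC5_Mo and 391.3 to 420.1 in MRC5_CoH196. CHGB, SYP and SCG2, which reached 19.97, 8.96 and 22.09 FPKM in H196_Mo, reached at most 0.12, 0.13 and 0.55 in MRC5_CoH196 and 0.15, 0.18 and 0.45 in MRC5_Mo. In bulk RNA, fewer cells of a kind and less RNA per cell cannot be told apart.

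The 40 genes together held 1.19% to 1.22% of the counts of an MRC5_Mo library, 1.20% to 1.22% in MRC5_CoH69 and 0.983% to 1.01% in MRC5_CoH196, where the libraries lay below those of the other MRC5 groups without overlap. These are shares of unscaled totals. On scaled CPM the relative fall was smaller, with sums of 12977 to 13222 in MRC5_Mo, 13273 to 13329 in MRC5_CoH69 and 12049 to 12145 in MRC5_CoH196. In H196 the share was lower, 0.695% to 0.719% in H196_Mo and 0.728% to 0.762% in H196_Co. On FPKM, which compares genes per length, CALR led in MRC5_Mo with 1237 ± 15.4 (SD, n = 3), followed by P4HB with 685 ± 26.1, HSP90B1 with 523, SEC61B with 345 and HSPA5 with 314 ± 5.16. These are the calcium-binding lectin chaperone, the main disulfide isomerase, the ER HSP90, a small subunit of the SEC61 channel and BiP. In MRC5_CoH196 the first places were exchanged, with P4HB at 840 ± 8.55 FPKM ahead of CALR at 744 ± 17.3, and HSPA5 went from rank 5 to rank 9 of the 40. ERO1A went from rank 31 at 12.6 ± 0.323 FPKM in MRC5_Mo to rank 11 at 81.8 ± 6.01 in MRC5_CoH196. In H196_Mo the order began with CALR at 495 ± 10.1 FPKM, HSP90B1 at 349 ± 15.7 and P4HB at 259 ± 8.63, and in H196_Co P4HB at 402 ± 17.7 stood in second place, before HSP90B1 at 371. SEC61B at 169 ± 15.3, CANX at 164 ± 6.27 and HSPA5 at 160 ± 4.04 FPKM were within their spread of each other in H196_Mo. ERO1B and DERL3 were the lowest 2 members in every group, and DERL3 had only 0 to 6 counts in a library of MRC5, so it was not tested there.

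**Figure D1:**
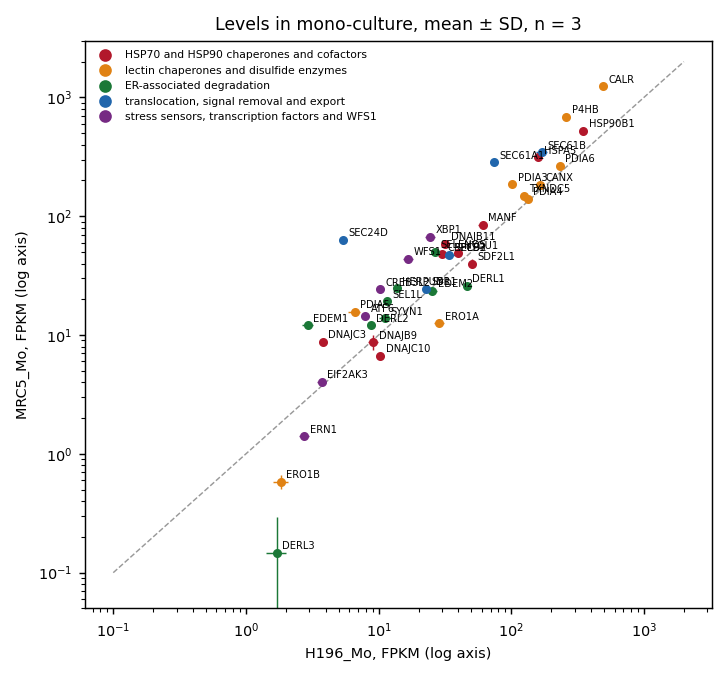
Mean FPKM of the 40 genes in H196_Mo (x axis) and MRC5_Mo (y axis), both log axes, with SD over 3 libraries as bars, coloured by role; the dashed line marks equal FPKM, and a bar that would pass below 0 is drawn to the lower edge. CALR lies at the top right with 1237 against 495 FPKM, SEC24D stands furthest above the line, and DERL3 and ERO1A lie below it.

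To see what the non-NE partner changed in fibroblasts, MRC5_CoH196 was compared with MRC5_Mo. Of the 10 HSP70 and HSP90 chaperones and cofactors 9 fell, HSPA5 (BiP) itself by 0.80 on the log2 scale, while the oxidase ERO1A rose by 2.86 and P4HB by 0.47. Of the 39 members tested, 21 were lower and 11 higher at an adjusted p under 0.05 (edgeR's quasi-likelihood test, Benjamini-Hochberg adjusted over 12819 genes), where 37.1% of all genes tested were lower and 37.2% higher. Both shares of all genes are large, so a call alone says little about a member here, and the sizes below carry the description. Past a log2 fold change of 0.58, the limit for a differentially expressed gene (DEG), 8 members were lower and 3 higher, against 14.7% and 17.2% of all genes. The median log2 fold change was -0.19 over the members and -0.003 over all genes, and the groups of libraries did not overlap for 79.5% of the members and 75.5% of all genes. Scaling by library totals alone moves the median of all genes to -0.178, which turns SEC24D from 0.16 to -0.01, takes SPCS3, WFS1 and ERO1B below the threshold and brings XBP1 past it as lower (-0.24), so small rises depend on the scale.

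Of the 10 HSP70 and HSP90 chaperones and cofactors, 9 were lower in MRC5_CoH196 than in MRC5_Mo and none was higher, with a median log2 fold change of -0.77 that stayed negative under every scaling. HSPA5, on chromosome 9 (125234853 to 125241343, GRCh38.p13), is the chaperone the others serve. Its scaled CPM was 1245, 1262 and 1225 in the libraries of MRC5_Mo, 1194, 1199.5 and 1232 in MRC5_CoH69 and 744, 709 and 672 in MRC5_CoH196. All 3 MRC5_CoH196 libraries lay below all others of MRC5, a 1.74-fold lower level (log2 fold change -0.80, standard error (SE) 0.04, adjusted p = 8.65e-15). SDF2L1, which works with the BiP partner DNAJB11, fell most of all members, by 1.63 on the log2 scale. It had 21.5, 25.01 and 24.4 CPM in MRC5_Mo, 24.3, 24.95 and 20.2 in MRC5_CoH69 and 7.31, 7.84 and 7.60 in MRC5_CoH196, with no overlap between MRC5_CoH196 and the rest (SE 0.10, adjusted p = 1.30e-13). HYOU1, the exchange factor of BiP, had 222, 226 and 232 CPM in MRC5_Mo, 226, 222 and 216 in MRC5_CoH69 and 87.7, 79.4 and 84.4 in MRC5_CoH196. This is a 2.68-fold lower level (log2 fold change -1.42, SE 0.05, adjusted p = 5.59e-19), again without overlap. MANF, a small secreted protein that binds BiP, had 56.0, 60.3 and 57.5 CPM in MRC5_Mo, 56.4, 54.3 and 59.2 in MRC5_CoH69 and 25.1, 26.7 and 23.9 in MRC5_CoH196 (log2 fold change -1.19, SE 0.06, adjusted p = 4.30e-15). SDF2L1, HYOU1 and MANF thus stood 2.28-fold to 3.09-fold below MRC5_Mo, further than BiP itself.

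Among the remaining cofactors the DNAJ proteins, which deliver clients to BiP, differed from each other. DNAJB11 fell by 0.94, DNAJC10 by 0.47 and DNAJC3 by 0.44 on the log2 scale, and DNAJB9 had a log2 fold change of 0.13 with a 95% interval from -0.04 to 0.29. CRELD2, a secreted protein that is raised by ER stress, fell by 0.75, from 60.2 ± 2.37 to 35.6 ± 2.33 CPM. HSP90B1, the ER HSP90, fell by only 0.21 (SE 0.04), from 1381 to 1451 CPM in MRC5_Mo to 1204 to 1241 in MRC5_CoH196, and these ranges did not overlap.

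The 10 lectin chaperones and disulfide enzymes were mixed, with 5 lower, 3 higher and 2 that did not pass. ERO1A, the oxidase that passes electrons from disulfide isomerases to oxygen, rose most of all members. It had 69.3, 67.7 and 66.2 CPM in MRC5_Mo, 71.1, 73.9 and 73.5 in MRC5_CoH69 and 452, 506 and 504 in MRC5_CoH196. The lowest MRC5_CoH196 library was far above the highest of the other groups, a 7.26-fold higher level (log2 fold change 2.86, SE 0.05, adjusted p = 2.39e-24). P4HB is a disulfide isomerase and also a subunit of the prolyl hydroxylase that modifies collagen. It rose from 1674, 1609 and 1549 CPM in MRC5_Mo to 2217, 2154 and 2260 (log2 fold change 0.47, SE 0.04, adjusted p = 1.47e-10), with MRC5_CoH69 between them at 1683 to 1760. The other isomerases went the other way or stayed near 0 change. PDIA4 fell by 0.91 on the log2 scale, from 376 to 388 CPM to 194 to 217, and PDIA5 by 0.35, PDIA6 by 0.30 and TXNDC5 by 0.24. PDIA3, which acts with the lectin chaperones, had a log2 fold change of -0.02 (95% interval -0.11 to 0.06). CALR fell by 0.56, from 2183 ± 19.2 to 1468 ± 59.0 CPM, while the related CANX had 0.02 (95% interval -0.06 to 0.09). ERO1B, the second oxidase, had 0.41 (adjusted p = 0.029) on 44 to 71 counts per library, with groups that overlapped, and the call was lost without MRC5_CoH196 replicate 2 or 3 or MRC5_Mo replicate 2, where the log2 fold change ranged from 0.30 to 0.54 over all 6 such fits.

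**Figure D2:**
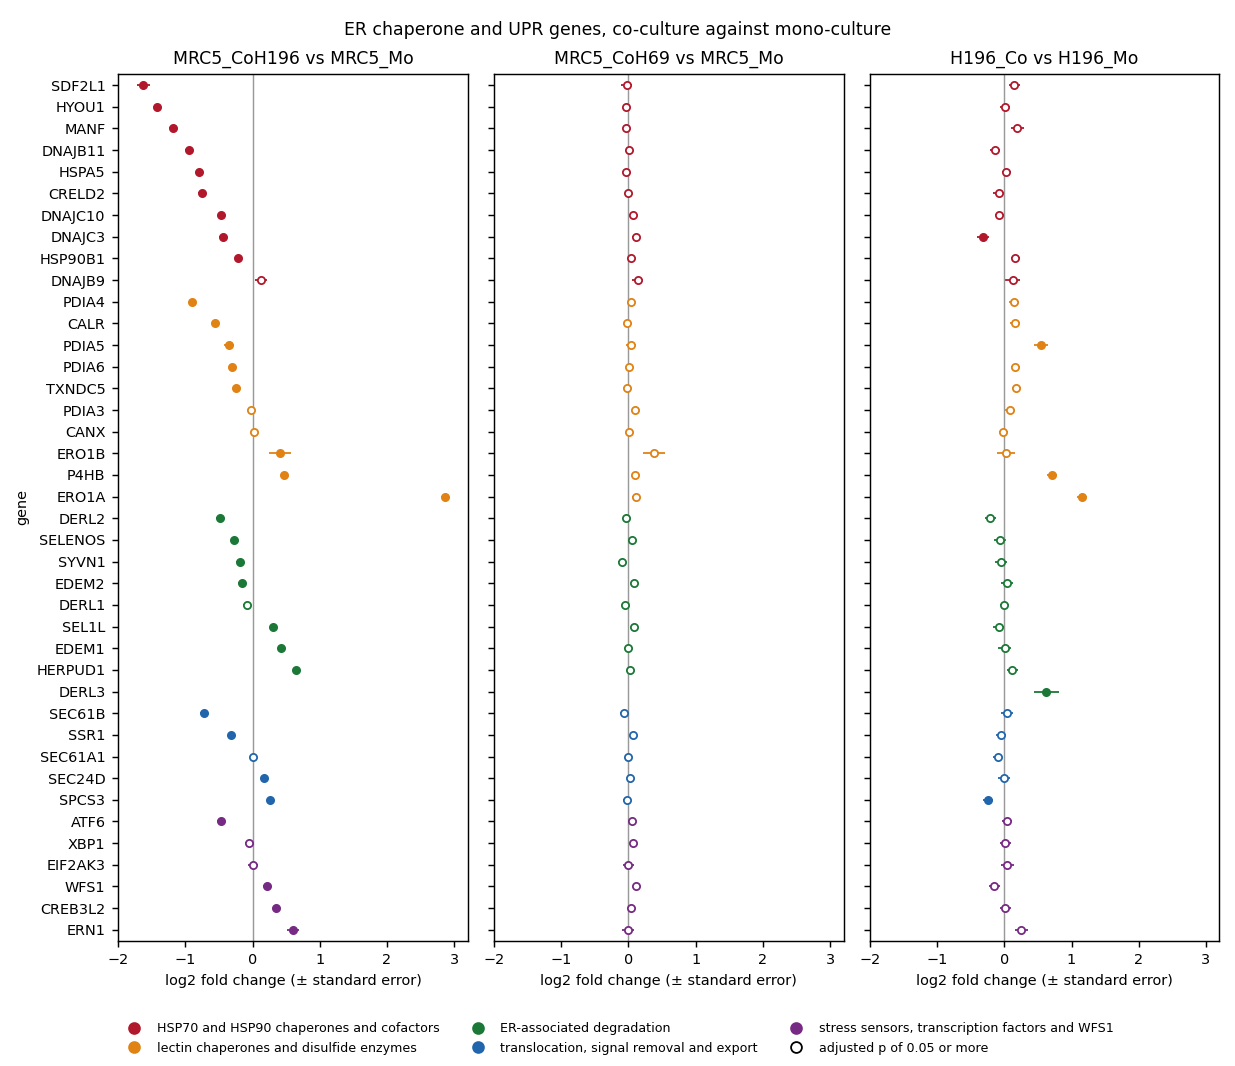
Log2 fold change with its standard error of each of the 40 genes (rows, grouped and coloured by role) in MRC5_CoH196 and MRC5_CoH69 against MRC5_Mo and in H196_Co against H196_Mo, 3 libraries per group; open points did not pass. Red points, the HSP70 and HSP90 group, lie left of 0 for 9 of 10 genes in the first panel, ERO1A lies furthest right at 2.86, and the middle panel holds open points only.

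ERAD genes were mixed as well, with 3 higher and 4 lower of 8 tested. HERPUD1, a scaffold of the ERAD ligase that sits in the ER membrane, rose from 69.1, 71.3 and 67.6 CPM in MRC5_Mo to 113, 102 and 109 in MRC5_CoH196, with 67.8, 72.7 and 71.4 in MRC5_CoH69. The MRC5_CoH196 libraries lay above all others (log2 fold change 0.65, SE 0.05, adjusted p = 1.37e-11). EDEM1, which recognises trimmed mannose on misfolded proteins, rose by a log2 fold change of 0.42 and SEL1L, the partner of the ligase SYVN1, by 0.30. The ligase SYVN1 itself fell by 0.19, EDEM2 by 0.16, DERL2 of the membrane channel by 0.48 and SELENOS by 0.27. DERL1 had -0.09 (95% interval -0.18 to 0.002).

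Of the 5 genes of translocation and export, SEC61B fell by 0.73, from 107 ± 5.04 to 63.9 ± 6.13 CPM, and SSR1, which sits beside the channel, by 0.31. SEC61A1, the pore-forming subunit, had a log2 fold change of 0.003 (95% interval -0.08 to 0.09), so the subunits of one channel had unequal values. SPCS3 of the signal peptidase had 0.26 and SEC24D, a cargo adaptor of the vesicles that leave the ER, 0.16, and both calls were lost with library totals alone.

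The sensors did not move as a group either, with 3 of 6 genes in this group higher and 1 lower. ERN1, the IRE1 kinase and nuclease, had 11.9, 12.6 and 11.98 CPM in MRC5_Mo, 12.3, 12.95 and 11.1 in MRC5_CoH69 and 19.2, 16.9 and 18.9 in MRC5_CoH196. It rose 1.52-fold without overlap (log2 fold change 0.60, SE 0.08, adjusted p = 6.82e-07). ATF6, the membrane-bound factor that drives the chaperone genes, fell by 0.48 (SE 0.05), and EIF2AK3 had a log2 fold change of 0.004 (95% interval -0.15 to 0.16). XBP1, whose mRNA is spliced by ERN1, had 109, 119 and 108 CPM in MRC5_Mo, 120.2, 115 and 116 in MRC5_CoH69 and 104, 108 and 107 in MRC5_CoH196. Its groups overlapped (log2 fold change -0.06, 95% interval -0.15 to 0.03, adjusted p = 0.247), and counts per gene do not separate its spliced form. CREB3L2, a related membrane-bound factor, had 0.35 and WFS1, an ER membrane protein with a role in calcium balance, 0.21.

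**Figure D3:**
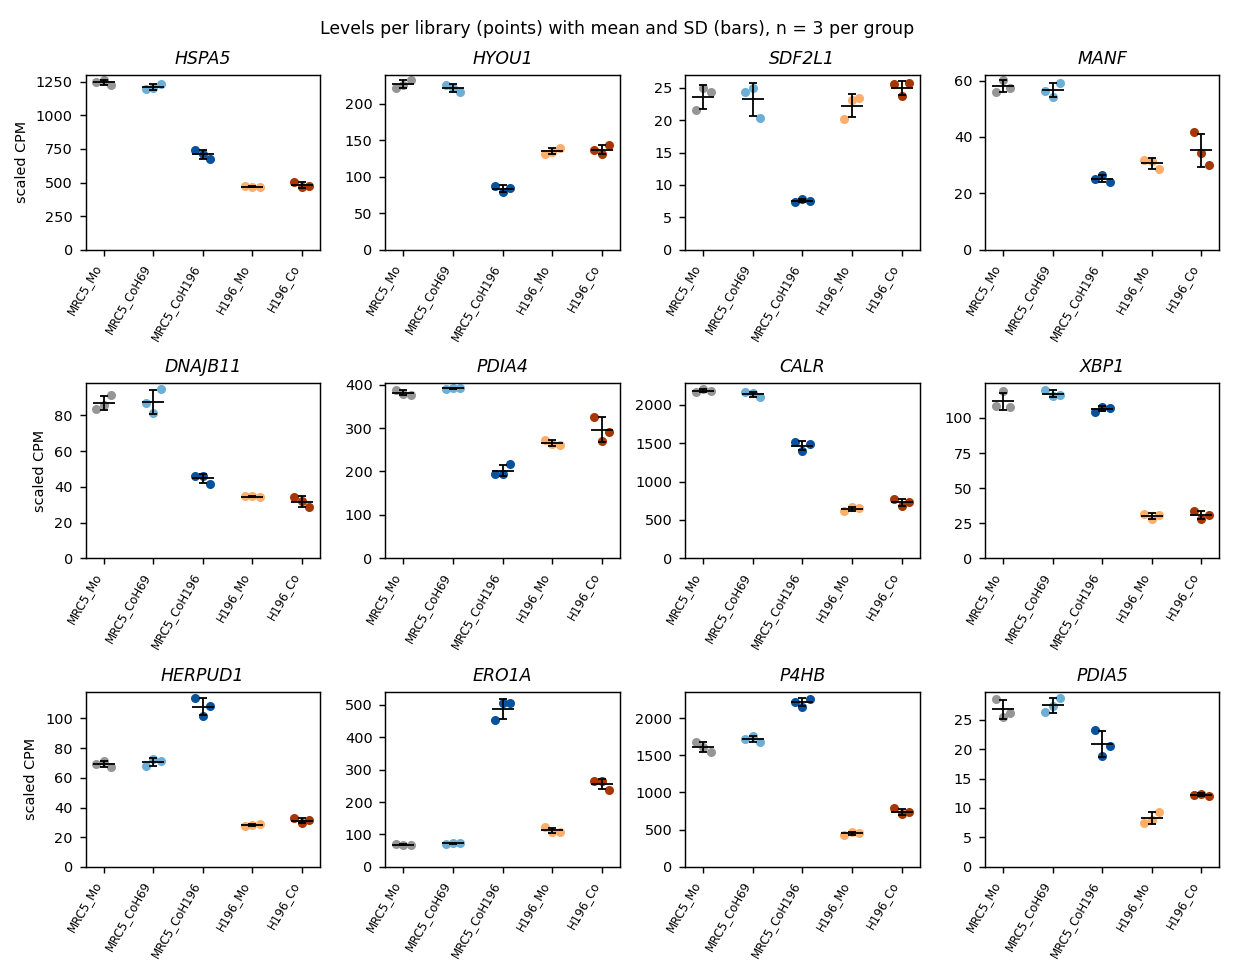
Scaled CPM of 12 of the genes in every library (points) of the 5 groups, with the mean and SD as bars (n = 3), each panel on its own axis from 0. For HSPA5, HYOU1, SDF2L1, MANF, DNAJB11, PDIA4, PDIA5 and CALR the MRC5_CoH196 points stand below the other MRC5 points, and for ERO1A, P4HB and HERPUD1 above them. The H196_Co points stand above the H196_Mo points for ERO1A, P4HB and PDIA5, which passed, and for CALR, SDF2L1 and HERPUD1, which did not.

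In MRC5_CoH196 against MRC5_Mo, members with a promoter element and members without one went in both directions. The counts below stand beside 37.1% of all genes that were lower and 37.2% that were higher. Of the 10 members with an ERSE or ERSE-II, 6 were lower and 2 higher, with a median log2 fold change of -0.39, and of the 26 with a promoter but without either, 15 were lower and 8 higher, with a median of -0.21. HERPUD1 with an ERSE-II rose while SDF2L1 and HYOU1 with the same element fell most, and XBP1 and CANX, both with an ERSE, did not pass. No test was made of these counts, and groups this small cannot show whether an element sorts the members. Of the 18 members that the tables place in the Hallmark UPR set, 9 were lower and 6 higher, and of the 21 others tested, 12 and 5. The tables also place HSPA5 and ERO1A in the Hallmark hypoxia and glycolysis sets, and these 2 moved in opposite directions.

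The NE partner was then compared in the same way. In MRC5_CoH69 against MRC5_Mo, 0 of 39 members were higher and 0 lower with edgeR, where 3.78% of all genes were higher and 2.93% lower, and DESeq2 also called 0 in either direction. At an unadjusted p under 0.05 there were 4 members, ERO1B, P4HB, PDIA3 and WFS1, or 10.3% of the members against 20.1% of all genes. The log2 fold changes ran from -0.09 to 0.14 apart from ERO1B at 0.37 (SE 0.16, adjusted p = 0.192). Leaving ERO1B aside, no 95% interval of a member reached below -0.21 or above 0.30, so changes as large as those of HSPA5 or ERO1A with H196 lay outside these intervals. HSPA5 had a log2 fold change of -0.04 (95% interval -0.12 to 0.04), XBP1 0.07 (-0.02 to 0.16) and ERO1A 0.11 (0.001 to 0.21, adjusted p = 0.275). The intervals use a normal quantile and are narrower than the test allows. That of ERO1A left out 0 although its unadjusted p was not under 0.05. Libraries of the 2 groups were fully apart for 25.6% of the members and 25.7% of all genes.

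The partners were also compared directly. In MRC5_CoH196 against MRC5_CoH69, 22 members were lower and 9 higher, beside 36.6% and 35.7% of all genes, and past the DEG limit 8 and 3, beside 13.1% and 15.2%. SDF2L1 (-1.60), HYOU1 (-1.39) and MANF (-1.16) were again the lowest and ERO1A (2.75), HERPUD1 (0.62) and ERN1 (0.61) the highest, and HSPA5 was 1.69-fold lower (SE 0.04 on the log2 scale, adjusted p = 3.05e-14). XBP1 passed here, at -0.13 (adjusted p = 0.0155), but not without MRC5_CoH196 replicate 1 or MRC5_CoH69 replicate 1, where its log2 fold change over the 6 such fits ranged from -0.14 to -0.11. This comparison shares the MRC5_CoH196 libraries with that against MRC5_Mo, so it is no separate evidence.

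On the cancer side, H196_Co was compared with H196_Mo. Of the 10 lectin chaperones and disulfide enzymes 3 rose, ERO1A, P4HB and PDIA5, and BiP did not pass. Of the 40 members tested, 4 were higher and 2 lower, against 12% and 7.78% of all genes, and 3 were higher DEGs and 0 lower, against 3.26% and 0.601%. Fitted with all 15 libraries together, 10 members were higher in place of 4, beside 2162 of 13578 genes in place of 1542 of 12806. With library totals alone the balance over all genes turned, from 1542 higher and 996 lower to 1024 and 2069, with 4 members in each direction. At an unadjusted p under 0.05, 12 members or 30% passed, beside 33.5% of all genes. ERO1A had 122, 109 and 108 CPM in H196_Mo and 264, 267 and 237 in H196_Co, a 2.23-fold rise without overlap (log2 fold change 1.16, SE 0.07, adjusted p = 6.17e-10). Its partner P4HB rose from 424, 468 and 455 CPM to 786, 706 and 736 (log2 fold change 0.71, SE 0.07, adjusted p = 6.42e-07), also without overlap. PDIA5, an isomerase of low level, rose from 7.504, 7.96 and 9.36 to 12.3, 12.5 and 11.95 CPM (log2 fold change 0.55, SE 0.11, adjusted p = 0.0012). These 3 belong to the disulfide group, where the other 7 members, from CANX at -0.01 to TXNDC5 at 0.18, did not pass. DERL3, an ERAD channel protein known from secretory cells, had 2.21, 2.19 and 1.73 CPM in H196_Mo and 3.52, 2.51 and 3.53 in H196_Co. It passed on 37 to 70 counts per library (log2 fold change 0.63, SE 0.19, adjusted p = 0.0225), and the call was lost with DESeq2 (adjusted p = 0.0734), on FPKM and without H196_Co replicate 1 or 3 or H196_Mo replicate 3, with log2 fold changes from 0.52 to 0.77 over the 6 such fits.

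The lower members of H196_Co were small changes. DNAJC3, the DNAJ partner that also inhibits PERK, had 16.1, 16.8 and 15.6 CPM in H196_Mo and 13.5, 13.96 and 12.002 in H196_Co (log2 fold change -0.31, SE 0.09, adjusted p = 0.0204). SPCS3 had 129, 108 and 110.2 CPM in H196_Mo and 97.8, 100.2 and 98.2 in H196_Co (log2 fold change -0.24, SE 0.07, adjusted p = 0.0268). For both genes the groups were apart, but the count of lower members ranged from 0 to 2 over the fits that leave out 1 library. It fell below 2 without H196_Co replicate 1 or 3 or H196_Mo replicate 1 or 2. HSPA5 had 472, 463 and 469 CPM in H196_Mo and 506, 469 and 473 in H196_Co (log2 fold change 0.03, 95% interval -0.10 to 0.16, adjusted p = 0.794), and its sign turned with library totals alone. XBP1 had 31.7, 27.8 and 30.6 CPM in H196_Mo and 33.5, 27.7 and 30.9 in H196_Co, overlapping groups with a log2 fold change of 0.02 (95% interval -0.15 to 0.18, adjusted p = 0.917). Of the 10 HSP70 and HSP90 chaperones and cofactors only DNAJC3 passed, with a group median of 0.02. The sensors had a median of 0.03, with ERN1 at 0.25 (adjusted p = 0.0591).

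Whether the lines differed in their response to each other was tested with an interaction term over all 15 libraries, the response of MRC5 to H196 minus the response of H196 to MRC5. The sequenced cells were those in the well, so these responses come from separate co-cultures with the lines in opposite places. Of the 40 members 19 were lower and 8 higher in this term, against 27.1% and 24.1% of all genes. The 2 responses use no library in common. ERO1A and P4HB rose in both lines. The rise of ERO1A was larger in MRC5 by 1.67 on the log2 scale (SE 0.08, adjusted p = 5.92e-15), and that of P4HB was larger in H196, with a term of -0.27 (SE 0.08, adjusted p = 0.00431). DNAJC3 fell in both, with a term of -0.15 that did not pass (95% interval -0.35 to 0.05). PDIA5 fell by 0.35 in MRC5 and rose by 0.55 in H196 (term -0.92, SE 0.13, adjusted p = 1.15e-06), and its MRC5_CoH196 libraries had 23.2, 18.8 and 20.6 CPM against 28.5, 25.5 and 26.1 in MRC5_Mo. SPCS3 did the reverse, with 0.26 in MRC5 and -0.24 in H196 (term 0.48, SE 0.09, adjusted p = 7.68e-05), and had 223, 228 and 215 CPM in MRC5_Mo and 244, 295 and 253 in MRC5_CoH196. The term was largest below 0 for SDF2L1, HYOU1 and MANF, and it was -0.86 for HSPA5 (SE 0.07, adjusted p = 1.26e-10), so the fall of these BiP-related genes in MRC5 differed from their values in H196. For XBP1 the term was -0.10 (95% interval -0.28 to 0.08, adjusted p = 0.365). In all, 19 members fell in MRC5 without passing in H196, 8 rose in MRC5 without passing in H196, and 7 passed in neither. Of all genes, 37.1% were lower and 37.2% higher in MRC5_CoH196, but 7.78% and 12% in H196_Co. A call in MRC5 alone was thus common among all genes, and their share in these classes was not counted.

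**Figure D4:**
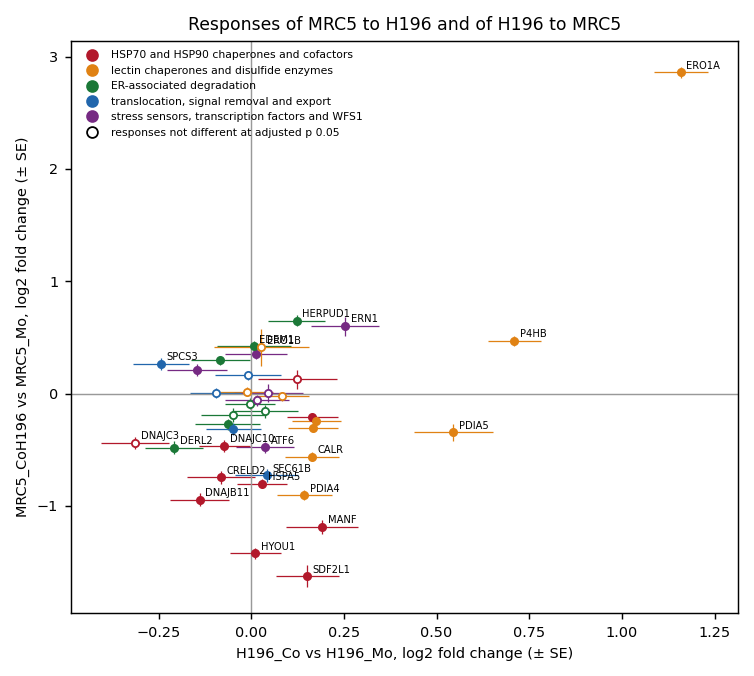
Log2 fold change with standard errors of 39 genes in H196_Co against H196_Mo (x axis) and MRC5_CoH196 against MRC5_Mo (y axis), 3 libraries per group, coloured by role; filled points passed the interaction term, and genes near 0 on both axes are not named. ERO1A stands alone at the top right with 1.16 and 2.86, SDF2L1, HYOU1 and MANF lie low near 0 on the x axis, and PDIA5 lies right of 0 and below it.

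The lines were compared in mono-culture to place these changes. MRC5_Mo was higher than H196_Mo for 33 of 40 members and lower for 6, against 42.5% and 44% of all genes, with a median log2 difference of 0.93 over the members and -0.03 over all genes. With library totals alone these medians were 0.489 and -0.469, and 28 members were higher and 7 lower, beside 3966 and 8108 of 13578 genes. DNAJB9 then went from 0.37 to -0.07 and EDEM2 from 0.34 to -0.10, and PDIA4 (0.08), SSR1 (0.11) and EIF2AK3 (0.12) no longer passed. The lines come from separate tables and media, and line, medium and table cannot be told apart. SEC24D had 258, 259.8 and 253 CPM in MRC5_Mo and 16.1, 16.1 and 16.1 in H196_Mo, a 15.9-fold difference (log2 3.99, SE 0.06, adjusted p = 2.26e-29). EDEM1 had 75.3, 76.4 and 79.4 CPM in MRC5_Mo and 14.8, 14.1 and 12.5 in H196_Mo (log2 2.48, SE 0.07, adjusted p = 3.73e-23). SEC61A1 had 992, 1005 and 1062 CPM against 191, 196.4 and 204 (log2 2.37, SE 0.06, adjusted p = 7.40e-25). These MRC5 levels all lay above those of H196, as did those of HSPA5, 2.66-fold (SE 0.05 on the log2 scale, adjusted p = 2.31e-20), and XBP1, 3.73-fold (SE 0.06, adjusted p = 5.65e-21). The 6 lower members were DERL3, ERO1B, ERO1A, ERN1, DERL1 and DNAJC10. DERL3 had 0 to 6 counts per MRC5_Mo library and 37 to 47 per H196_Mo library, and no fold is given at such counts. ERO1B had 3.31, 2.54 and 3.23 CPM in MRC5_Mo and 7.95, 5.86 and 7.26 in H196_Mo (log2 difference -1.21, SE 0.15, adjusted p = 2.40e-08). ERO1A was 1.67-fold lower in MRC5_Mo than in H196_Mo (log2 difference -0.74, SE 0.06, adjusted p = 7.43e-12), whereas its MRC5_CoH196 libraries, at 452 to 506 CPM, all lay above the H196_Co libraries, at 237 to 267. SDF2L1 was the member that did not pass (log2 difference 0.09, 95% interval -0.08 to 0.25).

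The same 7 days were described for 108 further ER genes in 7 lists. In MRC5_CoH196 against MRC5_Mo, 41 of 108 were higher and 37 lower, beside 37.2% and 37.1% of all genes, with a median log2 fold change of 0.02. In H196_Co against H196_Mo 15 of 107 tested were higher and 6 lower, beside 12% and 7.78% of all genes, with a median of 0.03. Against the same shares, the PERK arm and ATF4 targets had 11 of 12 higher and 1 lower in MRC5_CoH196 (median 0.72) and 6 of 11 higher and 0 lower in H196_Co (median 0.59). ATF4, the factor translated when PERK or related kinases act, went from 325 ± 6.70 to 570 ± 42.7 CPM in MRC5_CoH196 (log2 fold change 0.82, adjusted p = 5.66e-14) and had 0.15 in H196_Co (adjusted p = 0.14). DDIT3 went from 14.8 ± 1.90 to 32.4 ± 4.71 CPM in MRC5_CoH196 (log2 fold change 1.14, adjusted p = 4.70e-11) and from 12.1 ± 1.19 to 21.4 ± 1.64 in H196_Co (0.80, adjusted p = 5.05e-06). CHAC1, an ATF4 target that degrades glutathione, rose most of the list in both, by log2 fold changes of 1.74 and 0.96, and EIF2S1, the translation factor that PERK phosphorylates, fell by 0.54 in MRC5_CoH196. So in MRC5_CoH196 the genes of the ATF4 list were mostly higher while the chaperones around HSPA5 were mostly lower, in the same libraries. In MRC5_CoH69 the list had a median of -0.01.

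**Figure D5:**
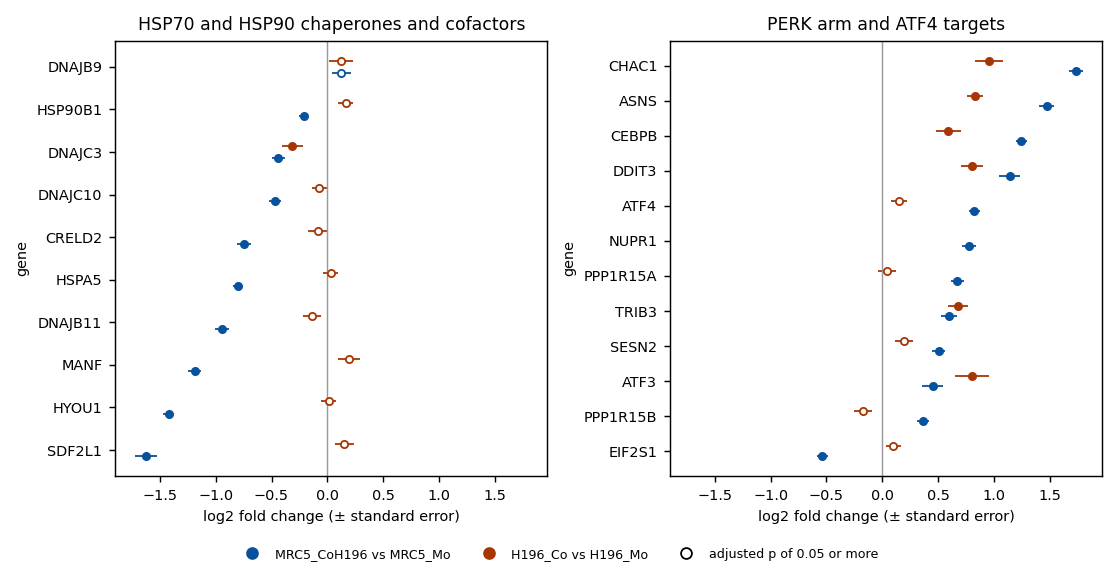
Log2 fold change with standard errors of the 10 HSP70 and HSP90 chaperones and cofactors (left) and of 12 genes of the PERK arm and ATF4 targets (right), in MRC5_CoH196 against MRC5_Mo (blue) and in H196_Co against H196_Mo (brown); open points did not pass, and NUPR1 was tested in MRC5 only. Blue points lie left of 0 for 9 of 10 chaperones and right of 0 for 11 of 12 genes of the other list.

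The remaining lists had members on both sides in MRC5_CoH196, to be read beside the 37.2% of all genes that were higher and the 37.1% that were lower. Further folding factors were 7 higher and 10 lower of 26, from SERPINH1, the collagen chaperone, at -1.03 to the peroxidase PRDX4 at 0.53. SERPINH1 went from 1369 ± 68.2 to 667 ± 18.0 CPM. N-glycan transfer and trimming had 3 higher and 6 lower of 16 (UGGT1 -0.49, DAD1 0.37), further ERAD genes 6 and 6 of 15 (UFD1 -0.79), further translocation genes 6 and 5 of 16 (SRPRB -1.38, TRAM2 0.88), ER to Golgi transport 7 and 5 of 16 (SEC13 -0.70, LMAN1 1.03) and sensor processing 1 and 4 of 7 (RTCB -0.63, MBTPS2 0.19). In H196_Co these 6 lists held 9 higher and 6 lower genes, with passing rises at SEC61G (0.72), CREB3L1 (0.57), FKBP9 (0.35), SEC24A (0.33) and KRTCAP2 (0.23), and the largest passing falls at EDEM3 (-0.31), SEC23A (-0.25), SEC62 (-0.23) and ATF6B (-0.20).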

How the data were processed

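mRNA of 15 libraries (5 groups of 3, taken from the sample titles) was analysed from 1 table per cell line. The authors cleaned reads with SOAPnuke and aligned them with HISAT (HISAT2 2.1.0 in the submitters' processing notes) to GRCh38.p13 and with Bowtie2 2.3.4.3 to reference genes; RSEM 1.3.1 is named in those notes without a role. The deposited values used here are the authors' expected counts (not normalized) and the authors' FPKM (to 2 decimals). Another 30 per-library columns (TPM and normalized counts), group averages and the authors' own comparison columns (log2 ratios and p-values) were not used.

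Expected counts were rounded. Genes kept by filterByExpr were fitted with edgeR 4.0.16 (R 4.3.3, quasi-likelihood, TMM, two-sided) in the 9 MRC5 libraries (12819 genes) and the 6 H196 libraries (12806), and in all 15 for comparisons between the lines (13578 of 15320 genes listed in both tables). P-values were Benjamini-Hochberg adjusted over all genes of a fit. A member passed at an adjusted p under 0.05. The SE is the log2 fold change over the square root of F, and 95% intervals are 1.96 SE. This normal quantile makes the intervals somewhat narrower than the F test would. CPM is scaled by TMM over the 15 libraries. Coordinates of 37 members are in the tables, and CANX, HYOU1 and DERL3 are there on other contigs only. Promoters come from RefSeq (GRCh38.p14) and were searched on both strands.

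Alternatives were DESeq2 1.42.0, its size factors, library totals alone, limma 3.58.1 on log2-transformed FPKM (pseudocount 1 or 0.1), other filters, other sets of libraries, the replicate block and leaving out each library. The fits were run on simulated counts in which few genes changed and as many rose as fell. In MRC5_CoH196 most genes were called, so that simulation cannot decide between the scalings. The members and lists were chosen with earlier results of these data known. Every member is accounted for, members that pass are named by role, and values per library are given for the 3 largest rises and 3 largest falls of a comparison, for HSPA5, XBP1 and ERO1A, and for members that pass in opposite directions in the lines. In the other lists ATF4, DDIT3 and the largest rise and fall are named, apart from 1 gene of the further ERAD list that is not reported here. Replicate libraries differed by more than sampling noise (chi-square per degree of freedom 1.89 to 10.8).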

Additional observations from a re-analysis of the deposited data

Results flagged for a closer look

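For 27 of the 40 genes the response of MRC5 cells to H196 differed from the response of H196 cells to MRC5 by the interaction term (edgeR over 15 libraries, adjusted p under 0.05), 8 of them higher and 19 lower, beside 24.1% and 27.1% of all genes. All values are the log2 response in MRC5 minus that in H196. Among the HSP70 and HSP90 chaperones and cofactors it was -1.81 for SDF2L1, -1.46 for HYOU1, -1.41 for MANF, -0.86 for HSPA5, -0.83 for DNAJB11, -0.69 for CRELD2, -0.42 for DNAJC10 and -0.40 for HSP90B1. Among lectin chaperones and disulfide enzymes it was 1.67 for ERO1A, -1.08 for PDIA4, -0.92 for PDIA5, -0.75 for CALR, -0.50 for PDIA6, -0.44 for TXNDC5 and -0.27 for P4HB. ERAD genes had 0.50 for HERPUD1, 0.39 for EDEM1, 0.35 for SEL1L, -0.30 for DERL2 and -0.24 for SELENOS. Genes of translocation had -0.80 for SEC61B, 0.48 for SPCS3 and -0.29 for SSR1. Sensors and factors had -0.54 for ATF6, 0.33 for WFS1, 0.32 for ERN1 and 0.31 for CREB3L2. The calls of SELENOS (adjusted p = 0.0401) and ERN1 (adjusted p = 0.0359) were the least stable. SELENOS lost its call in 8 of 12 fits that left out 1 library (term between -0.29 and -0.16) and ERN1 in 5 of 12 (between 0.24 and 0.41). SELENOS kept it only without H196_Co replicate 2 or 3, H196_Mo replicate 1 or MRC5_CoH196 replicate 2. ERN1 lost it without H196_Co replicate 1 or 3, H196_Mo replicate 1 or MRC5_Mo replicate 1 or 3. DERL2 (between -0.36 and -0.19) and SSR1 (between -0.37 and -0.21) each lost the call without MRC5_CoH196 replicate 1 or 3.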

How the results depend on the processing

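The falls of HSPA5, SDF2L1, HYOU1 and MANF and the rise of ERO1A in MRC5_CoH196 kept direction and call under every alternative run. With the DEG limit, MRC5_CoH196 had 3 higher and 8 lower members against MRC5_Mo and 3 and 8 against MRC5_CoH69, H196_Co had 0 lower, the interaction term 1 higher and 10 lower, and MRC5_Mo 3 lower than H196_Mo. Of all genes, MRC5_CoH196 had 17.2% higher and 14.7% lower against MRC5_Mo and 15.2% and 13.1% against MRC5_CoH69 past this limit. H196_Co had 0.601% lower. Of 13578 genes, the interaction term had 1644 higher and 1716 lower, and MRC5_Mo had 4278 lower than H196_Mo. Library totals alone and limma on log2(FPKM + 1) or log2(FPKM + 0.1) each left 7 higher members in MRC5_CoH196 against MRC5_Mo. Both FPKM fits left 5 higher in the interaction term, beside 2730 (pseudocount 1) and 2628 (pseudocount 0.1) of 13578 genes. Library totals gave 4 lower in H196_Co, beside 2069 of 12806 genes. Over all genes library totals gave 3466 higher and 6296 lower in MRC5_CoH196, and log2(FPKM + 1) 3299 and 6178, against 4765 and 4757 with TMM. One fit of all 15 libraries gave 10 higher members in H196_Co, beside 2162 of 13578 genes.

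Signs turned under these scalings for some members. DNAJB9 and EDEM2 between the lines and SEC24D in MRC5_CoH196 had passed with TMM, while HSPA5 and XBP1 in H196_Co had not. In the order library totals, log2(FPKM + 0.1) and log2(FPKM + 1), the values were -0.0714, -0.0799 and -0.072 for DNAJB9 and -0.1038, -0.102 and -0.0985 for EDEM2 between the lines, -0.0465, -0.0479 and -0.0476 for HSPA5 and -0.0609, -0.0628 and -0.0605 for XBP1 in H196_Co, and -0.0205, -0.0231 and -0.0228 (against MRC5_CoH69) and -0.0115, -0.0104 and -0.0102 (against MRC5_Mo) for SEC24D in MRC5_CoH196. Leaving out 1 library gave 0 to 2 lower members in H196_Co, and log2 fold changes there of -0.0111 to 0.0489 for HSPA5 and -0.0558 to 0.0828 for XBP1.

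Same-numbered libraries did not deviate together (correlations from -0.151 to 0.081), so no pairing by replicate number was seen. Such correlations cannot tell whether same-numbered libraries were prepared together. The replicate block gave 1 lower member in H196_Co in place of 2 (SPCS3, adjusted p = 0.0502) and left every other count of members as it was. Where a call changed, the cause was not tested. With 3 libraries per group, an SE of 0.04 to 0.17 in MRC5 and of 0.07 to 0.19 in H196 limits what can be told apart, and depth limits DERL3 and ERO1B.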
